A study of Mus musculus with 6 samples.

Results

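A vector coding for the growth factor VEGFC was compared with a control vector in the injured brain alone. The comparison took the 4 libraries from mice with traumatic brain injury (TBI), of 6 libraries in the series, and 18336 of the 28650 nuclei. Libraries were chosen by their labels: TBI with AAV-VEGFC, right and left hippocampus, against TBI with AAV-GFP, right and left hippocampus. The libraries of sham-operated mice were not used. AAV is adeno-associated virus, a gene delivery vector, and the AAV coding for green fluorescent protein (GFP) is the control vector. All mice were male and of the genotype Tau P301S (PS19), so the GFP controls carry the tau transgene and the injury too. PS19 mice express mutant human tau under the prion protein promoter, mainly in neurons, and develop tau pathology. The injury was a controlled cortical impact on the right, used as a mild TBI, so each vector has 1 library from the impacted side and 1 from the opposite side. Age, vector dose, injection site, time after injury, the number of mice pooled in a library and whether both sides come from the same mice are not known from the sources used here. P-values therefore rest on these 4 libraries alone, and for several classes and clusters on a trend over genes, as given below. If both sides of a vector come from the same mice, its libraries are not independent replicates. Vector could then not be told apart from differences between the mice or their preparation, and no p-value below accounts for this.

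VEGFC is a secreted ligand of VEGFR3 (gene Flt4), the main receptor for the growth of lymphatic vessels, and after processing it also binds VEGFR2 (Kdr). Neuropilins (Nrp1, Nrp2) are co-receptors of this family. In the brain, VEGFC is known for the growth of lymphatic vessels in the meninges, which drain fluid and macromolecules towards the cervical lymph nodes. The dissected tissue was hippocampus with adjoining tissue and not the meninges. The nuclei measured here were classed as neurons, glia, choroid plexus epithelium and fibroblasts. Whether any of them came from meninges left on the tissue was not tested.

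The right GFP, left GFP, right VEGFC and left VEGFC libraries held 4950, 5428, 4282 and 3676 nuclei. Groups of 4 values below are in that order. Each library had 15358208 to 17622789 UMIs (unique molecular identifiers, 1 per captured RNA molecule), and the left VEGFC library had the deepest nuclei, with a median of 3703.5 UMIs against 2835.5 to 2991.5 in the others. Pairs of libraries shared 0 to 7 barcodes. The authors assigned nuclei to 9 classes and 32 clusters, with no endothelial class among them. The 6 astrocyte markers summed to 10282 to 10792 CPM (a UMI count scaled to a fixed library total) in the astrocyte class. In the microglia class, the 6 markers tested for microglia summed to 12432 to 13506 CPM. These sums alone do not compare a class with the others.

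Mouse Vegfc RNA did not differ beyond counting error between the vectors. Over all nuclei, Vegfc had 184, 188, 156 and 163 UMIs, or 10.7, 10.7, 10.2 and 10.1 CPM. The counting intervals of these 4 values overlap. Whether RNA made from the vector would be counted under the mouse gene is not stated, so this level does not check the treatment. Flt4, which marks lymphatic endothelium, had 2, 3, 4 and 5 UMIs in whole libraries, and Kdr, which marks blood endothelium, had 17, 5, 11 and 6. The co-receptors were abundant: Nrp1 had 163, 169, 192 and 192 CPM over all nuclei, and Nrp2 had 95.2, 109, 113 and 114 CPM. In excitatory neurons the log2 fold changes were 0.26 ± 0.08 (SE) for Nrp1 and 0.27 ± 0.08 for Nrp2, with an adjusted p of 0.23 for each in edgeR's quasi-likelihood test. Of 13 listed genes of the VEGF axis, 10 were tested in excitatory neurons and 0 passed, with 5 above and 5 below 0. The mouse tau gene Mapt did not pass in any class. Over all nuclei Mapt had 298, 282, 316 and 351 CPM, with the counting intervals of both VEGFC libraries above those of both GFP libraries. These intervals cover counting error only, and the part of class shares was not tested. Whether RNA of the human tau transgene would be counted under Mapt is not stated. In oligodendrocytes Mapt was at 1550, 1631, 1788 and 2037 CPM (log2 fold change 0.26 ± 0.08, adjusted p = 0.28 in edgeR's test), a difference in the same direction on both sides.

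No class took a different share of nuclei with VEGFC at the threshold of 0.05. Microglia came nearest. They made up 0.990% and 0.737% of the GFP libraries and 1.47% and 3.75% of the VEGFC libraries, from 49, 40, 63 and 138 nuclei. The log2 fold change of the microglial share was 1.46 ± 0.57 (unadjusted p = 0.0448 and adjusted p = 0.403 in edgeR's test), and both VEGFC libraries lay above both GFP libraries. Such separation was not particular to microglia. Oligodendrocyte precursors were also higher, at 3.23% and 3.63% against 3.76% and 3.89%. Inhibitory neurons, at 13.5% and 17.9% against 13.1% and 11.2%, and choroid plexus epithelium were lower in both VEGFC libraries. Fits with 1 library left out also lack the hemisphere term, and with all 4 libraries and no such term the microglial log2 fold change was 1.59. The size of the microglial difference depended on the left VEGFC library: without it the log2 fold change was 0.77 ± 0.42, and without the right VEGFC library 2.12 ± 0.41. The doublet score of the microglial nuclei moved with this: its median was 0.0865, 0.0858, 0.0801 and 0.0391, and 33 of 49, 25 of 40, 32 of 63 and 10 of 138 nuclei had a score of at least 0.08, close to the highest deposited score of 0.0989. At a score of at most 0.05, 0, 0, 1 and 94 of these nuclei remained, and the log2 fold change of the share was 8.82. With 0 nuclei left in both GFP libraries, that refit cannot tell what part the score has in the result. Excitatory neurons were steady at 42.2%, 43.1%, 43.0% and 41.2% of nuclei, and astrocytes at 21.7%, 19.4%, 20.6% and 21.2%. Oligodendrocytes were at 9.62%, 5.95%, 9.06% and 11.7%. For oligodendrocytes and for inhibitory neurons, the counting intervals of the vectors lay apart on the left and overlapped on the right. Choroid plexus epithelium made up 5.80% of the right GFP library and 3.57% to 3.96% of the others. Among clusters, Excitatory neuron 5 lay lower in both VEGFC libraries, at 4.73% and 2.38% against 1.42% and 1.93%. Its counting intervals overlap on the left (unadjusted p = 0.168 in edgeR's test). Excitatory neuron 10 also lay lower, with 83, 67, 5 and 26 nuclei and intervals that overlap on the left. Inhibitory neuron 2 was at 4.14% and 3.11% against 2.15% and 1.25%, with the intervals apart on both sides. Of 32 clusters 0 passed in edgeR's test, and 3 had an unadjusted p under 0.05, each with an adjusted p of 0.404. These were Excitatory neuron 15 (log2 fold change 1.49), Excitatory neuron 16 (-1.64) and Inhibitory neuron 2 (-1.13). The share of the mixed neuron class was higher with VEGFC on the right and lower on the left.

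**Figure D1:**
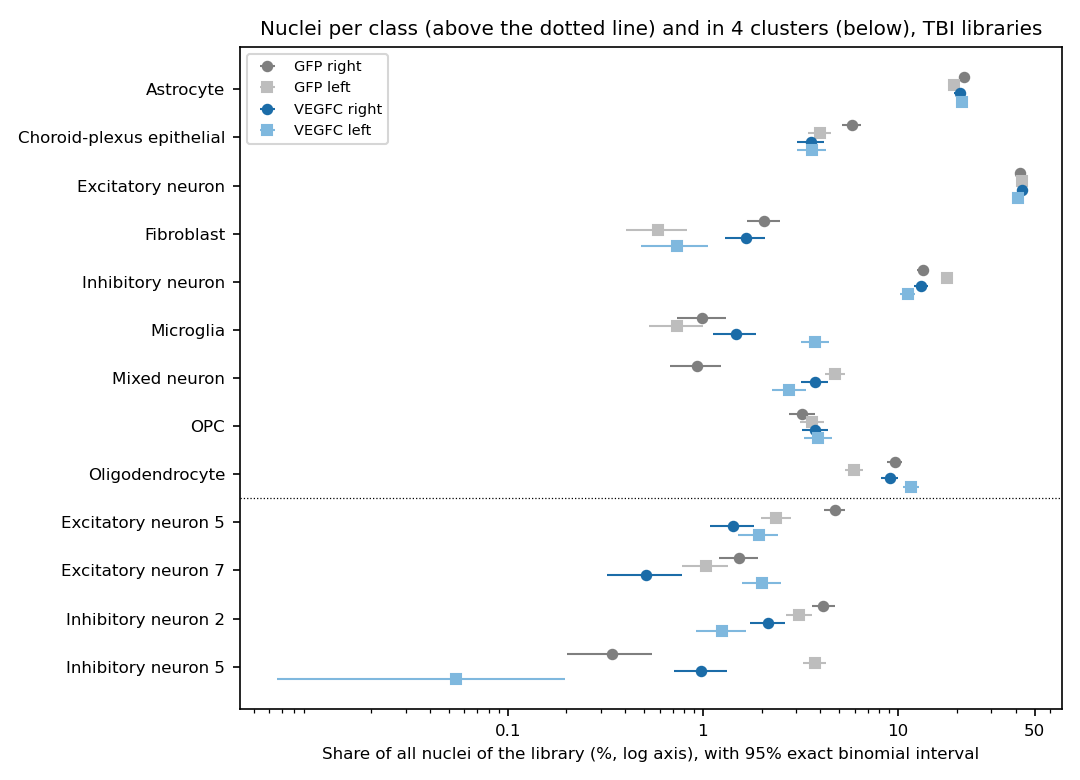
Share of all nuclei (percent, log axis) taken by each of the 9 classes and 4 clusters in the 4 libraries, with exact Clopper-Pearson 95% intervals, which cover counting error only. Microglia reach 3.75% in the left VEGFC library against 0.737% in the left GFP library, and Inhibitory neuron 5 spans 0.0544% to 3.74%.

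Gene expression was compared on UMIs summed per class and library, with hemisphere as a block, which leaves 1 residual degree of freedom. In astrocytes, choroid plexus epithelium, microglia and oligodendrocytes, and in the clusters Astrocyte 1 and 3, Excitatory neuron 2 and 3 and Inhibitory neuron 1 and 3, edgeR took all spread from the trend over genes, so a p there says little of how well the libraries of 1 vector agree. Over the 9 classes, 191 of 78186 tests passed, 107 higher and 84 lower with VEGFC, for 174 distinct genes. DESeq2, which draws its spread differently, called 4 genes in all, each in excitatory neurons and each among edgeR's calls there. The count of called genes in a class moved strongly with the method and when single libraries were left out, as the plot of calls by setting shows. Every fit with 1 library left out also lacks the hemisphere term. The part of the missing library and that of the missing term were not told apart.

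**Figure D2:**
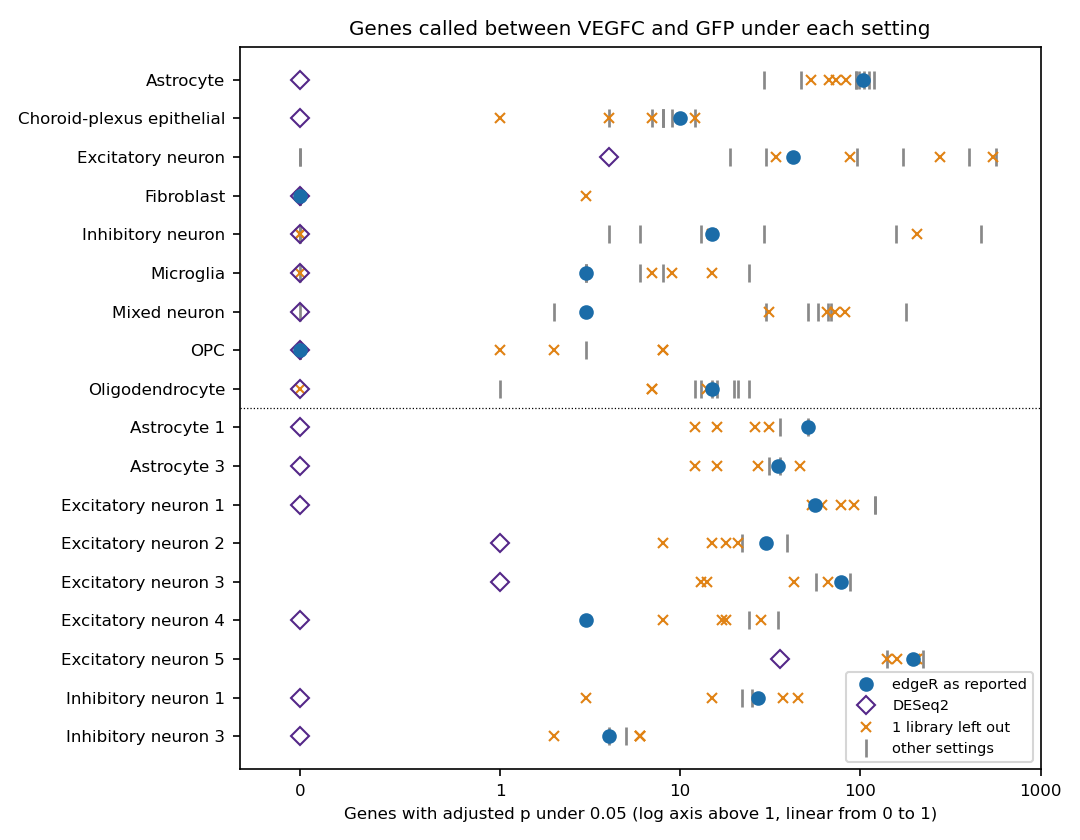
Number of genes past an adjusted p of 0.05 in each class and cluster with edgeR on all 4 libraries, with DESeq2, with 1 library left out and with other settings (x axis logarithmic above 1 and linear below). Excitatory neuron 5 has 196 calls with all libraries and 36 with DESeq2, whereas the whole excitatory class ranges from 0 to 564.

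Astrocytes, which take up glutamate and regulate water and ions, held most of the calls. Of 12479 genes tested, 66 were higher and 37 lower with VEGFC, or 0.825% called. Pde10a, a phosphodiesterase that breaks down cAMP and cGMP (chromosome 17, 8525372 to 8986648 in mm10), had 74.4, 65.6, 123 and 142 CPM. Both VEGFC libraries exceeded both GFP libraries, with a log2 fold change of 0.91 ± 0.13 (adjusted p = 2.27e-09). Fabp7, a fatty acid binding protein of radial glia and astrocytes, was at 29.9, 28.2, 57.3 and 50.9 CPM (0.89 ± 0.20, adjusted p = 0.00206). Aff2, a nuclear protein of the AF4/FMR2 family, also rose, from 23 and 17.3 CPM to 34.9 and 45.0 CPM. The metabotropic glutamate receptor Grm3 was at 564, 594, 774 and 810 CPM, a log2 fold change of 0.45 ± 0.07. The water channel Aqp4, which lines the end-feet around vessels, had 504, 453, 675 and 528 CPM and rose by 0.33 ± 0.08 on the log2 scale (adjusted p = 0.0053). The libraries were apart here too, with the left VEGFC library only just above the right GFP library. Of all 12479 astrocyte genes, 2447 had both VEGFC libraries above both GFP libraries, and 2503 had both below.

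Among genes lower in astrocytes, Slco1a4, an organic anion transporter, was at 22.5, 18.4, 6.22 and 7.6 CPM, a log2 fold change of -1.55 ± 0.35 (adjusted p = 0.00282). One nucleus gave 16.0% of its UMIs, and Slco1a4 is also an endothelial marker. All 7 endothelial markers tested, Slco1a4 among them, summed to 76, 68, 49 and 67 CPM in astrocytes. Since this sum holds Slco1a4 itself, it does not show whether the other markers moved with it. Ell2, a transcription elongation factor, was lower in the VEGFC libraries, at 27.9, 27.0, 12.4 and 13.4 CPM. Id3, an inhibitor of DNA binding induced by BMP and TGF-beta signals, was at 506, 533, 415 and 351 CPM (-0.44 ± 0.08, adjusted p = 3.5e-05). The clock output gene Dbp was at 67.4, 77.7, 44.2 and 42.7 CPM (-0.74 ± 0.17, adjusted p = 0.0031). Its relative Tef had 135, 138, 139 and 134 CPM, and Per1 had 62.9, 54.7, 56.0 and 60.8. The immediate early genes Junb and Jund, subunits of the AP-1 factor, fell with VEGFC: Junb was at 78.3, 76.5, 47.3 and 46.8 CPM. They were 2 of 13 immediate early genes tested, of which 9 were below 0, with a median log2 fold change of -0.15.

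Each list of astrocyte states had 1 gene past the threshold. Of 17 reactive genes tested this was Id3, and 10 were below 0 with a median of -0.03. Gfap, the main marker of reactive astrocytes, had 911, 891, 946 and 923 CPM (0.05 ± 0.07, adjusted p = 0.88), and Vim had 81.8, 67.3, 66.0 and 57.3. Of 15 homeostatic genes it was Aqp4, and the median was 0.01. For all astrocyte genes 49.3% were above 0. With scaling by library totals the astrocyte calls were 38 higher and 60 lower, so the balance of directions turned, while that scaling shifted the median of all genes by under 0.1. Without the right GFP library 53 genes were called, and without the left GFP library 67. Pde10a passed in 12 of 13 other settings, all but DESeq2.

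The authors split the astrocytes into clusters, 2 of which were large enough to fit. In Astrocyte 1, 34 genes rose and 17 fell (0.478% called). Adam23, a cell adhesion protein, was at 269, 269, 137 and 154 CPM there, -0.89 ± 0.11 with an adjusted p of 4.99e-11, and passed in 6 of 7 other settings. Kcnk1, a potassium leak channel, was at 46.1, 57.8, 24.9 and 18.8 CPM, and the chemokine Cxcl5 at 59.6, 50.5, 31.9 and 24.5. The adenylyl cyclase Adcy8 was higher, at 35.2, 34.9, 64.8 and 63.0 CPM. In Astrocyte 3, 23 genes rose and 12 fell (0.381% called). Tmeff2, a transmembrane protein with EGF and follistatin domains, was at 68.9, 77.3, 170 and 145 CPM (1.12 ± 0.20), and the cadherin Cdh4 at 39.4, 20.3, 86.6 and 83.3. Mamdc2, an extracellular matrix proteoglycan, was at 177, 182, 101 and 70.9 CPM (-1.06 ± 0.19). For Tmeff2, Cdh4 and Mamdc2 the groups did not overlap. Of all 9183 genes tested in Astrocyte 3, 1774 had both VEGFC libraries above both GFP libraries, and 1690 had both below. Astrocyte 1 had 26, 31, 12 and 16 calls without the right GFP, left GFP, right VEGFC or left VEGFC library, and without the right GFP or the left VEGFC library Astrocyte 3 had 12 and 16.

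**Figure D3:**
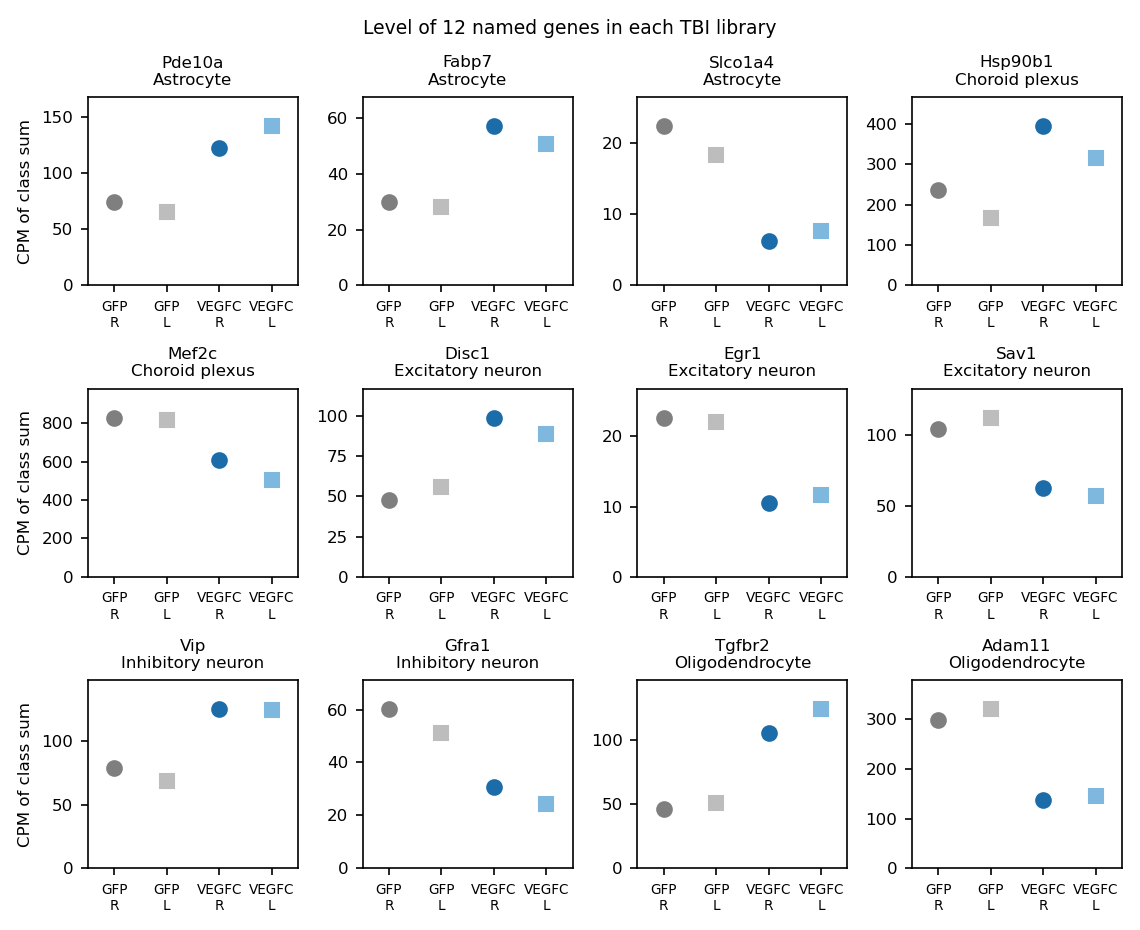
Level of 12 genes (CPM, scaled by TMM factors) in the 4 libraries, each point 1 library, in the class where the gene is described. In each of the 12 panels the VEGFC libraries lie on 1 side of the GFP libraries, as for astrocyte Pde10a at 123 and 142 against 74.4 and 65.6 CPM. The genes were picked among calls with the same direction on both sides, so this separation follows largely from the choice. Of all calls, 101 of 103 in astrocytes and 42 of 42 in excitatory neurons were separated likewise.

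Choroid plexus epithelium makes cerebrospinal fluid. Of 8280 genes tested, 6 rose and 4 fell with VEGFC (0.121% called). Hsp90b1, which codes for GRP94, a chaperone of the endoplasmic reticulum, was at 237, 167, 395 and 315 CPM, with both VEGFC libraries above both GFP libraries (log2 fold change 0.81 ± 0.15, adjusted p = 0.000606). Prlr, the prolactin receptor, was at 1018, 755, 1221 and 1312 CPM (0.52 ± 0.10, adjusted p = 0.00102). The lipoprotein receptor gene Lrp1b had 114, 125, 246 and 172 CPM. Among genes that fell, the transcription factor Mef2c was at 831, 819, 612 and 505 CPM (-0.56 ± 0.12), Ap1s2, a clathrin adaptor subunit, at 348, 431, 246 and 239, and the arginine- and serine-rich protein gene Rsrp1 at 1061, 1231, 823 and 740. Ttr, the transthyretin carrier that defines this epithelium, had 9857, 11100, 10341 and 10410 CPM and did not differ by more than its error (-0.01 ± 0.07). Of 21 secretory and transport genes tested 1 passed, Prlr, with 12 above 0 and a median of 0.04. Without the left GFP library 1 gene was called, and without the left VEGFC library 4.

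Hsp90b1 belongs to the unfolded protein response, in which a load of unfolded protein in the endoplasmic reticulum induces chaperones through the sensors IRE1, PERK and ATF6. Of 22 listed genes of this response, 20 were tested in choroid plexus. One passed, 16 were above 0, and the median log2 fold change was 0.39, with 0.19 on the right and 0.47 on the left, beside a median of 0.00 over all choroid plexus genes. Hspa5, which codes for BiP, the main chaperone of the compartment, was at 105, 77.1, 119 and 174 CPM (0.65 ± 0.22, adjusted p = 0.34). The lectin chaperone Calr was at 76.4, 63.8, 124 and 92.7 CPM, and the disulfide isomerase Pdia3 at 159, 85.9, 184 and 174. None of the 3 passed, and the groups did not overlap for any of them. Of all 8280 choroid plexus genes, 1519 had both VEGFC libraries above both GFP libraries, and 1576 had both below. In astrocytes, where 20 of the listed genes were tested, Hsp90b1 alone passed, at 122, 112, 162 and 160 CPM (0.46 ± 0.11, adjusted p = 0.0088), and 13 were above 0 with a median of 0.08. Excitatory neurons had 0 of 21 past the threshold and 18 above 0, median 0.21, in edgeR's test. Over the 9 classes Hsp90b1 was above 0 in 7 and below 0 in microglia and mixed neurons.

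**Figure D4:**
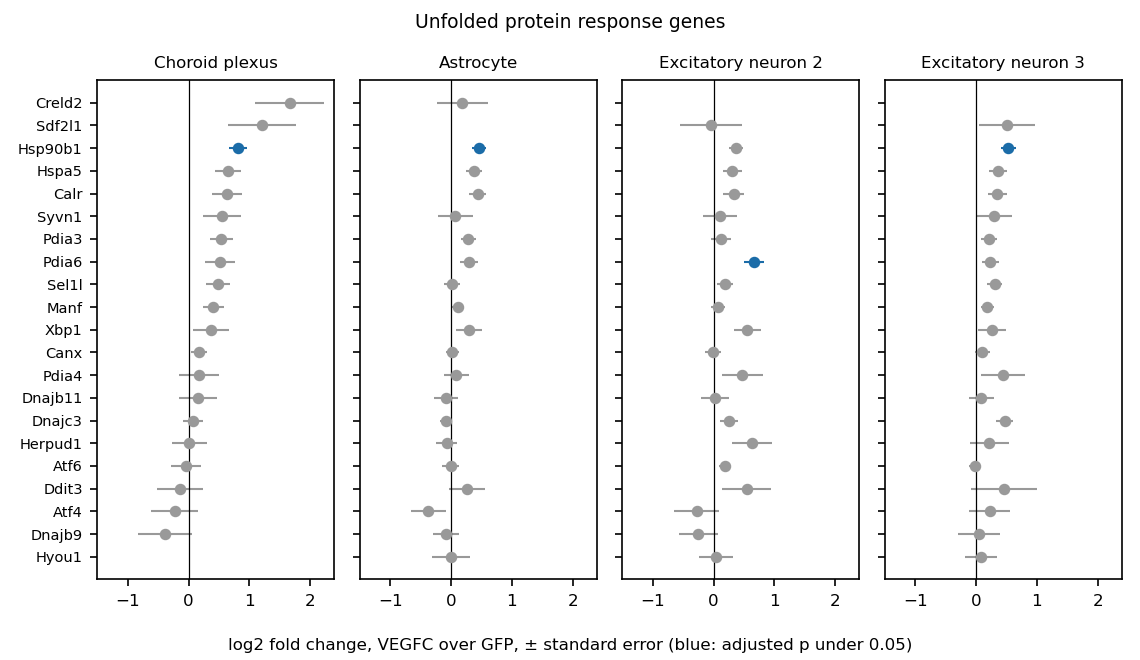
Log2 fold change (VEGFC over GFP, ± SE) of each tested unfolded protein response gene in choroid plexus epithelium, astrocytes, Excitatory neuron 2 and Excitatory neuron 3, with genes past the threshold in blue. Most points lie above 0, and 1 gene per panel passed, Hsp90b1 in 3 of the 4 panels and Pdia6 in Excitatory neuron 2.

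Promoters of this response carry the endoplasmic reticulum stress element, letters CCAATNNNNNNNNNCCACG, to which ATF6 and NF-Y bind. It was searched on both strands in the 250 bases before the annotated start of each gene in RefSeq (GRCm38.p6, the mm10 assembly). Of 32851 such windows 37 (0.113%) held it, and of 19 matched genes of the list 8 did: Hspa5, Hsp90b1, Calr, Canx, Pdia6, Dnajc3, Creld2 and Syvn1. Their choroid plexus log2 fold changes ran from 0.07 for Dnajc3 to 1.66 for Creld2, and of the 8 Hsp90b1 alone passed. They were not compared with the listed genes that lack the element, so no link of the element to the fold changes was tested. A match describes these letters and is no measured binding site. The windows of Hsp90b1, at chr10:86705445-86705694 on the minus strand, and of Hspa5, at chr2:34771840-34772089 on the plus strand, are shown because Hsp90b1 passed in choroid plexus and Hspa5 codes for the main chaperone of the compartment. They run 5′ to 3′ on the strand of the gene with each match in capitals, 2 in Hsp90b1 and 1 in Hspa5.
Hsp90b1: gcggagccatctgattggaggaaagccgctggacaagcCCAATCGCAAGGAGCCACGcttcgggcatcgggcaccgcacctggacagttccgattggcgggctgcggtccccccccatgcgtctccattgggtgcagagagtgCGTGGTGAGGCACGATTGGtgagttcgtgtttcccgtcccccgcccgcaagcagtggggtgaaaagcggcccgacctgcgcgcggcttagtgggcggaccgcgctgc
Hspa5: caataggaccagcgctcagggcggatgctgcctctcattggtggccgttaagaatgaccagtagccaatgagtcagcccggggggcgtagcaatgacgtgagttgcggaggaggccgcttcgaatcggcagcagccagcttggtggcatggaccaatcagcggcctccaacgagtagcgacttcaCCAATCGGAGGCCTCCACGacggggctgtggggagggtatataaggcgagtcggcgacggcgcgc

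In excitatory neurons, the largest class, 23 genes rose and 19 fell of 16168 tested (0.260% called). Disc1, a scaffold protein of neurodevelopment and of the centrosome (chromosome 8, 125054195 to 125261858), was at 47.5, 55.6, 99.0 and 88.7 CPM, 0.86 ± 0.10 with an adjusted p of 0.00602. Sav1, the scaffold of the Hippo kinases (chromosome 12, 69965012 to 69987002), was at 104, 112, 62.6 and 56.9 CPM, -0.86 ± 0.09 with an adjusted p of 0.00545. Disc1 and Sav1 were among the 4 genes that DESeq2 also called. Plpp4, a lipid phosphatase, rose from 8.29 and 9.37 to 15.9 and 19.8 CPM, and the transcriptional corepressor Cbfa2t3 from 18.6 and 21.1 to 34.8 and 33.4 CPM. Sytl2, an effector of Rab27 in vesicle transport, fell from 24.2 and 24.7 to 13.3 and 10.7 CPM.

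Egr1, an immediate early transcription factor induced by neuronal activity, was at 22.7, 22.0, 10.5 and 11.7 CPM in excitatory neurons (-1.01 ± 0.14, adjusted p = 0.0172). Junb was at 63.0, 57.1, 41.3 and 35.5 CPM (-0.65 ± 0.09, adjusted p = 0.0172). For both genes, all GFP libraries exceeded all VEGFC libraries. This held for 3579 of all 16168 excitatory genes, and the reverse for 3613. Egr1 and Junb were the 2 that passed of 24 immediate early genes tested, with 16 below 0 and a median of -0.15. Fos had 8.90, 9.78, 4.09 and 7.35 CPM (adjusted p = 0.23), and Arc 19.8, 17.2, 12.7 and 15.9 (adjusted p = 0.36). Of 22 postsynaptic genes and 21 genes of vesicle release 0 passed, with medians of 0.10 and 0.01. Prox1, the transcription factor of dentate granule cells, rose from 69.2 and 92.4 to 125 and 117 CPM (0.60 ± 0.11, adjusted p = 0.0441). The share of excitatory nuclei in Excitatory neuron 2 and 3, the clusters rich in dentate granule markers, was 31.3%, 41.6%, 44.2% and 38.6%, and its part in Prox1 was not tested. At an equal number of nuclei per library, or with size factors by relative log expression (RLE), 0 excitatory genes were called. With library totals 57 were higher and 115 lower, and leaving out the right GFP, the left GFP or the left VEGFC library gave 278, 544 and 88.

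Clusters of excitatory neurons were compared one by one, since their shares vary. Excitatory neuron 1 was rich in CA1 markers, which summed to 834 to 892 CPM. There 31 genes rose and 25 fell (0.462% called). Homer1, a scaffold of the postsynaptic density that also counts as an immediate early gene, was at 296, 270, 408 and 440 CPM (0.58 ± 0.08, adjusted p = 0.00065). In the other large clusters it did not pass: in Excitatory neuron 2 it was at 102, 66.6, 66.6 and 61.1 CPM (-0.39 ± 0.16, adjusted p = 0.44). Whether Homer1 differs between clusters was not tested. Ccnd2, a D-type cyclin, was higher in Excitatory neuron 1, at 16.6, 21.4, 33.4 and 40.4 CPM. Zfp46, a zinc finger protein, fell from 26.9 and 21.8 to 8.84 and 8.53 CPM (-1.49 ± 0.24) and passed in 6 of 7 other settings. Stmn1, which destabilises microtubules, was at 40.4, 44.9, 21.3 and 28.3 CPM. Without the right VEGFC library 92 genes were called.

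Excitatory neurons 2 and 3 were rich in dentate granule markers, which summed to 1588 to 1863 and 924 to 1087 CPM. In Excitatory neuron 2, 16 genes rose and 14 fell (0.274% called), and in Excitatory neuron 3, 41 rose and 37 fell (0.696% called). Zfp804b, a zinc finger gene (chromosome 5, 6769010 to 7344756), was at 142, 144, 293 and 334 CPM in Excitatory neuron 2, a log2 fold change of 1.13 ± 0.11 (adjusted p = 6.2e-22). In Excitatory neuron 3 it was at 140, 135, 264 and 320 CPM, 1.10 ± 0.10 (adjusted p = 8.1e-23). It passed in all 7 other settings in both clusters, DESeq2 included. In Excitatory neuron 2, Glp1r, the receptor for glucagon-like peptide 1, rose from 20.7 and 14.7 to 35.5 and 35.1 CPM, and Sav1 fell from 107 and 112 to 68.1 and 57.6 CPM. The activity- and clock-related repressor Bhlhe40 rose in Excitatory neuron 3, from 10.4 and 14.3 to 26.6 and 30.8 CPM, and the ligand Wnt9a fell from 48.1 and 31.0 to 24.8 and 13 CPM.

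The unfolded protein response and transcripts of the mitochondrial genome were also read in these clusters. Of 20 unfolded protein response genes tested in Excitatory neuron 3, 19 were above 0 with a median of 0.25, and Hsp90b1 passed at 103, 99.9, 138 and 153 CPM (0.53 ± 0.12, adjusted p = 0.0052). In Excitatory neuron 2, 16 of 20 were above 0 with a median of 0.19, and Pdia6, a disulfide isomerase, passed at 43.0, 61.3, 88.1 and 78.7 CPM (0.67 ± 0.17, adjusted p = 0.035). Of 11 transcripts of the mitochondrial genome tested in Excitatory neuron 3, 3 passed, all higher, and 10 were above 0 with a median of 0.31. These were mt-Cytb, at 200, 191, 249 and 256 CPM, mt-Nd3, at 34.9, 39.0, 47.9 and 67.7, and mt-Nd4, at 90.6, 61.4, 104 and 106, which code for subunits of the respiratory chain. Nuclei hold no mitochondria, and such transcripts were a median of 0.0950% to 0.110% of the UMIs of a nucleus over the 4 libraries. Without the left GFP library Excitatory neuron 2 and 3 had 15 and 14 calls, without the left VEGFC library 8 and 13, and without the right GFP library 18 and 43.

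Excitatory neuron 4, rich in CA3 markers (2202 to 2552 CPM), had 1 gene higher and 2 lower (0.0302% called). Col11a1, a fibrillar collagen chain, was at 283, 201, 524 and 290 CPM (0.74 ± 0.11, adjusted p = 0.0255). Its right GFP library, at 283, was close to its left VEGFC library, at 290. Slc24a5, a sodium, potassium and calcium exchanger, was at 486, 452, 312 and 295 CPM (-0.63 ± 0.10, adjusted p = 0.0255) and passed in all other settings but DESeq2. The count was 18, 8, 28 and 17 when the right GFP, left GFP, right VEGFC or left VEGFC library was left out.

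Excitatory neuron 5 had the most called genes of the 9 clusters fitted. Of 7630 genes tested in this cluster, 142 rose and 54 fell with VEGFC (2.57% called), and DESeq2 called 36. The cluster held 234, 129, 61 and 71 nuclei, and markers of cortical excitatory neurons summed to 1832 to 1918 CPM in it. Pde1c, a calmodulin-dependent phosphodiesterase, was at 14.1, 40.6, 208 and 91.7 CPM, from 13, 19, 61 and 39 UMIs (2.64 ± 0.38, adjusted p = 0.000115). Ntng1, netrin-G1, an axonal adhesion protein of thalamic and other projection neurons, was at 19.5, 40.6, 205 and 87.0 CPM (2.41 ± 0.36). Ror1, a receptor for Wnt5a, was at 21.6, 8.54, 75.1 and 120 CPM (2.50 ± 0.37), with 16.5% of its UMIs from 1 nucleus. The voltage-gated potassium channel partner Kcnip1 had 1, 1, 7 and 14 UMIs. Ptprz1, a receptor phosphatase, was at 24.9, 29.9, 123 and 68.2 CPM, and the cation channel Trpm3 at 84.4, 70.5, 277 and 198.

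Collagen genes were among those that fell in Excitatory neuron 5. Col5a1 was at 109, 85.4, 20.5 and 25.9 CPM (-2.02 ± 0.33, adjusted p = 0.000527), and Col6a1 had 38, 12, 0 and 1 UMIs. They were 2 of 6 collagen and matrix genes tested, 5 of which were below 0. Ribosomal protein genes were mostly lower, with 65 of 73 below 0 and a median of -0.37, and 3 passed, Rps16 and Rpl35a among them. Of all genes tested in the cluster 50.2% were above 0. Over all nuclei of a library, ribosomal transcripts were a median of 0.577%, 0.595%, 0.568% and 0.518% of the UMIs of a nucleus, lowest in the left VEGFC library, and their part in this list was not tested. Egr1 was at 46.5, 59.8, 10.2 and 18.8 CPM (-1.83 ± 0.42, adjusted p = 0.014) and Junb at 71.4, 98.2, 20.5 and 44.7. Pde1c, Ntng1, Ror1, Col5a1 and Col6a1 passed in all other edgeR settings that gave a value. DESeq2 gave no adjusted p for these 5 genes. The cluster was a larger share of the GFP libraries, and whether the differences lie within 1 kind of neuron or reflect which neurons fell into the cluster was not tested.

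**Figure D5:**
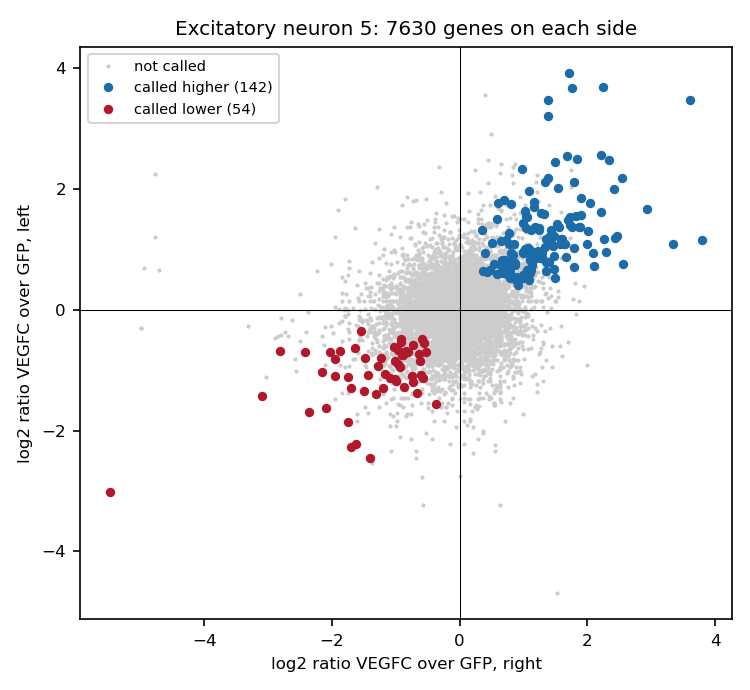
Log2 ratio of VEGFC to GFP on the right (x axis) and on the left (y axis) for each of 7630 genes of Excitatory neuron 5, with the 142 higher and 54 lower genes coloured. The coloured genes lie in the 2 quadrants where both sides have the same sign, which also hold 57.1% of all genes tested.

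In inhibitory neurons 3 genes rose and 12 fell of 13606 tested (0.110% called). Vip, the neuropeptide of a class of interneurons that inhibit other interneurons, was at 78.5, 68.6, 125 and 125 CPM (0.77 ± 0.14, adjusted p = 0.0241). Zfp57, a zinc finger protein that maintains imprints, rose from 27.9 and 21.1 to 46.0 and 46.1 CPM. Gfra1, the receptor for GDNF, fell from 60.2 and 51.2 to 30.9 and 24.3 CPM (-1.01 ± 0.17, adjusted p = 0.0133). In excitatory neurons Gfra1 rose, from 38.1 and 46.4 to 67.1 and 62.4 CPM (0.62 ± 0.10, adjusted p = 0.0339). The exchanger Slc24a4 was lower in inhibitory neurons, at 39.7, 75.1, 30.5 and 19.0 CPM, as was the homeobox gene Zfhx4, at 46.5, 52.7, 30.1 and 21.0.

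The makeup of the inhibitory class varied. All 9 interneuron markers tested were above 0 with a median of 0.40, though Vip alone passed, and their sum was 2716, 2529, 3424 and 4146 CPM. Inhibitory neuron 3, where these markers were richest at 10518 to 12070 CPM, made up 17.2%, 17.3%, 24.0% and 28.0% of the class. Markers of striatal neurons were below 0 for 8 of 8, with 0 past the threshold in edgeR's test and a median of -0.87, but the right and left medians were 1.28 and -2.57. Their sum was 85, 410, 189 and 66 CPM, and Inhibitory neuron 5 made up 2.55%, 20.9%, 7.47% and 0.487% of the class. The part of these shares in the gene differences was not tested. Without the right GFP library 207 genes were called, and without either VEGFC library 0, with 0 also at equal numbers of nuclei. Library totals gave 1 higher and 5 lower.

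In Inhibitory neuron 1, 14 genes rose and 13 fell (0.255% called). Htr2c, a serotonin receptor, was at 61.2, 156, 223 and 226 CPM (1.10 ± 0.15, adjusted p = 4.01e-09). The level in the left GFP library was closer to the VEGFC libraries than to the right GFP library. The anoctamin Ano3 was at 140, 123, 84.2 and 57.4 CPM (-0.91 ± 0.17), and Jund at 66.8, 75.9, 39.0 and 39.5. In Inhibitory neuron 3, 3 genes rose and 1 fell (0.0451% called). Rgs6, a regulator of G-protein signalling, was at 43.3, 47.2, 63.8 and 140 CPM (1.19 ± 0.25), high in the left VEGFC library. Without the right GFP library 3 and 2 genes were called in these clusters, and Htr2c no longer passed. For Inhibitory neuron 1 the count was 15 without the right VEGFC library and 45 without the left.

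Oligodendrocytes, which make myelin, had 8 genes higher and 7 lower of 8074 tested (0.186% called). Tgfbr2, the type II TGF-beta receptor (chromosome 9, 116084293 to 116175360), was at 46.3, 51.1, 106 and 124 CPM (1.23 ± 0.25, adjusted p = 0.00153). Sgk1, a kinase induced by glucocorticoids, rose from 417 and 432 to 619 and 588 CPM. Mpzl1, a cell surface glycoprotein, rose from 190 and 214 to 350 and 274, and Ninj2, an adhesion molecule induced by nerve injury, from 276 and 239 to 379 and 392. Adam11, a catalytically inactive ADAM protein of the nervous system (chromosome 11, 102761439 to 102780262), fell from 299 and 321 to 138 and 145 CPM (-1.13 ± 0.16, adjusted p = 1.65e-08). Tubb3, a beta-tubulin known mainly from neurons, was at 61.7, 67.4, 13.3 and 22.1 CPM, and Tnni1, a slow muscle troponin gene, at 84.9, 88.3, 18.9 and 31.5. Rbms3, an RNA-binding protein, had 29, 11, 5 and 1 UMIs. For each of these genes the groups did not overlap. Of all 8074 oligodendrocyte genes, 1489 had both VEGFC libraries above both GFP libraries, and 1454 had both below.

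Of 17 myelin genes tested 0 passed in edgeR's test, 12 were above 0 and the median was 0.06. Mbp was at 3936, 3813, 4252 and 4136 CPM. Heat shock genes were 0 of 14 past the threshold with 11 above 0 and a median of 0.41. Nearest was Hsp90aa1, the inducible cytosolic HSP90, at 113, 88.3, 161 and 176 CPM (0.73 ± 0.19, adjusted p = 0.053). Without the left GFP library 0 oligodendrocyte genes were called, without the right GFP or right VEGFC library 7, and at equal numbers of nuclei 1. Adam11 passed in 11 of 13 other settings.

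Oligodendrocyte precursors (OPC) had 0 calls among 6345 genes in edgeR's test (0% called), with 381 at an unadjusted p under 0.05. DESeq2 and limma-voom called 0 as well, with 2 and 339 at an unadjusted p under 0.05. Of 15 genes of the transition to oligodendrocytes 14 were above 0, with a median of 0.12. Enpp6, a marker of newly forming oligodendrocytes, was at 3.58, 39.7, 53 and 69.8 CPM (1.45 ± 0.49, adjusted p = 0.80), lowest in the right GFP library. Snx30, a sorting nexin, was at 32.2, 39.7, 106 and 82.0 CPM, and the receptor phosphatase Ptprd at 1016, 877, 686 and 635, each with an adjusted p of 0.797. Without the right or the left GFP library 8 genes were called, without the right VEGFC library 1 and without the left 2.

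Microglia, the brain's resident macrophages, had 0 genes higher and 3 lower of 1862 tested (0.161% called). The named call, the noncoding RNA Snhg11, which neurons express, was at 147, 1908, 112 and 329 CPM. One nucleus gave 50% of its UMIs, and without the left GFP library its log2 fold change was 0.75 in place of -2.28 and 0 genes were called. The count was 9, 15 and 7 without the right GFP, right VEGFC or left VEGFC library. Homeostatic genes were level: of 11 tested 0 passed in edgeR's test and the median was 0.00, with Cx3cr1, the fractalkine receptor, at 2334, 1992, 2288 and 2194 CPM. Of 8 genes of disease-associated microglia 0 passed and the median was 0.10, with Apoe at 5257, 4630, 5228 and 5257 CPM. Of 7 type I interferon genes 0 passed, 6 were above 0, and the median was 0.58. Rnf213, an interferon-induced ubiquitin ligase, had 197, 224, 465 and 313 CPM (0.86 ± 0.42, adjusted p = 0.74). Counting error was large, since 40 to 138 nuclei stand behind each value.

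Fibroblasts had 0 calls among 1521 genes (0% called), with 50 at an unadjusted p under 0.05 in edgeR's test and 0 and 81 in DESeq2 and limma-voom, which also called 0. Without the right VEGFC library 3 were called. Lpar1, a receptor for lysophosphatidic acid, was at 832, 992, 467 and 445 CPM (-0.95 ± 0.27, adjusted p = 0.999), and Nsa2, a ribosome biogenesis factor, at 166, 177, 415 and 445 (1.31 ± 0.36). The groups lay apart for both, without passing. Of all 1521 fibroblast genes, 250 had both VEGFC libraries above both GFP libraries, and 247 had both below. The class named mixed neurons had 1 gene higher and 2 lower of 9851 (0.0305% called). Iqgap2, a cytoskeletal scaffold, was at 25.3, 27.5, 93.6 and 94.1 CPM (1.79 ± 0.28, adjusted p = 0.035). Cacna2d2, a calcium channel subunit, was at 218, 210, 97.5 and 81.9 CPM, and the glypican Gpc5 at 664, 421, 208 and 214. With library totals 27 mixed-neuron genes were higher and 31 lower, and leaving out 1 library gave 82, 65, 31 and 72.

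Few genes were called in more than 1 class. Of the 174, 12 were called in exactly 2 classes and 2 in 3 or more, both gene models with clone names. Of these 14, 4 had opposite directions between classes, among them Gfra1 and Grm3, which are named after their values were seen. Grm3 rose in astrocytes and fell in excitatory neurons, from 160 and 129 to 83.0 and 95.9 CPM (-0.68 ± 0.11, adjusted p = 0.0262). Sav1 was below 0 in 6 of 6 classes where it was tested, from -0.99 to -0.53, and was called in excitatory neurons and oligodendrocytes, where it was at 329, 372, 208 and 262 CPM. Slc24a5 was below 0 in 7 of 7 classes, from -0.76 to -0.30, and was called in excitatory neurons. Disc1 was above 0 in 6 of 6, from 0.08 to 0.86, with the libraries of the vectors apart in 2. It was called in excitatory neurons alone. Pde10a was above 0 in 8 of 8, from 0.09 to 0.95, with the libraries apart in 4, and was called in astrocytes alone. Rsrp1 was below 0 in 9 of 9 classes, from -1.02 to -0.24, with the libraries apart in all 9, and was called in choroid plexus alone. Within 1 class such separation is common. In astrocytes 2447 of all 12479 genes had both VEGFC libraries above both GFP libraries, and 2503 had both below. In excitatory neurons these were 3613 and 3579 of 16168. How many of all genes keep 1 sign, or stay apart, over all classes was not counted. The classes share the 4 libraries, so their values are not independent of each other.

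The choroid plexus gene Ttr and the glial genes Apoe and Cst3 were also read in other classes and clusters. Ttr fell in astrocytes, at 702, 420, 311 and 430 CPM (-0.57 ± 0.08, adjusted p = 2.3e-09), and in oligodendrocytes, at 990, 546, 432 and 646. The groups overlap in both classes. The log2 ratio of VEGFC to GFP was -1.17 on the right and 0.03 on the left in astrocytes, and -1.20 and 0.24 in oligodendrocytes. Ttr did not pass in excitatory, inhibitory or mixed neurons (adjusted p = 0.0995, 0.0695 and 0.342 in edgeR's test). In every class but choroid plexus its level was highest in the right GFP library, the one with 5.80% choroid plexus nuclei, whose part in these differences was not tested. In Excitatory neuron 1 it was at 253, 170, 122 and 125 CPM. Apoe, a lipid carrier made mainly by astrocytes, fell in Excitatory neuron 1, at 212, 197, 160 and 148 CPM (-0.41 ± 0.08, adjusted p = 0.023), and in Excitatory neuron 3, at 317, 239, 211 and 197. In astrocytes Apoe was at 4826, 5401, 6037 and 5171 CPM and did not pass (0.13 ± 0.06, adjusted p = 0.39). Cst3, a protease inhibitor abundant in microglia and astrocytes, was at 308, 236, 223 and 197 CPM in Excitatory neuron 1 and 371, 302, 289 and 245 in Excitatory neuron 3. Astrocyte markers summed to 87, 72, 74 and 65 CPM in Excitatory neuron 1. The part of free RNA from other cells in these differences was not tested. A difference of the vector effect between right and left could not be tested, since each combination has 1 library.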

How the data were processed

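Single-nucleus RNA was counted with 10x Genomics 3' v3.1 chemistry, per the labels' protocols. The submitters' processing notes name Cell Ranger 7.0.1, Scanpy and mm10, without settings. Raw UMI counts of 26049 genes were deposited, and all values are whole. The deposited metadata give each nucleus's library, class, cluster, total count, percent of mitochondrial and ribosomal UMIs, and a doublet score from an unstated tool, which reached 0.0989. All these nuclei were used, and doublets were not called again.

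Counts were summed per class, or per cluster with at least 50 nuclei in each library, and library. They were tested with edgeR 4.0.16 (R 4.3.3): filterByExpr, TMM, a quasi-likelihood fit with terms for hemisphere and vector, and Benjamini-Hochberg adjustment within a class or cluster at 0.05. Of 32 clusters 12 met the minimum and 9 of them are not identical to a class. Fold changes are log2, VEGFC over GFP. CPM are TMM-scaled except over all nuclei. Each SE is the absolute log2 fold change over the square root of F. Shares of nuclei were tested in edgeR likewise, without TMM, with exact Clopper-Pearson 95% intervals. The edgeR step was tested on simulated counts.

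Genes were named by rule: up to 4 per direction in each class and cluster of largest change that passed, averaged at least 10 CPM and had the same direction on both sides, or the 2 with the smallest p where fewer than 2 passed. Vegfc, Mapt and VEGFC receptors are given always. Members of the 50 lists and genes called in several classes are named besides. Clone-named models were counted, not named. Values of some genes are not reported here. The groups, lists and genes were chosen with earlier results of these data known. The alternatives were library totals, RLE size factors, no low-count filter, robust empirical Bayes, no hemisphere term, a doublet score of at most 0.05, equal numbers of nuclei, DESeq2 1.42.0, limma-voom (limma 3.58.1), and each library left out. Clusters were refitted with DESeq2, library totals, no filter and left-out libraries. All fits with a library left out had no hemisphere term. Gene positions come from the GENCODE annotation of GRCm38 (mm10), and promoters from RefSeq, GRCm38.p6. The depth of class sums limits folds in microglia and fibroblasts most.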

Additional observations from a re-analysis of the deposited data

Results flagged for a closer look

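Shares of 3 groups of nuclei differed in opposite directions with VEGFC on the right and on the left, with the counting intervals of the vectors apart on both sides. Further groups also had opposite signs, with intervals that overlap on at least 1 side. With 1 library per combination, the difference between sides was not tested. The mixed neuron class was 2.81 percentage points higher with VEGFC on the right and differed by -1.997 points on the left. Excitatory neuron 7 differed by -1.02 points on the right and 0.98 points on the left. Inhibitory neuron 5 differed by 0.64 points on the right and -3.69 points on the left, from 17, 203, 42 and 2 nuclei.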

How the results depend on the processing

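Of 113 named values past the threshold, 102 remained past it with library totals, 99 with no filter on low counts, and 49 to 69 when 1 library was left out, of 112 or 113 that gave a value. Of 47 in classes, 44 remained with robust empirical Bayes, 41 with limma-voom, 37 with RLE size factors, 33 with no hemisphere term and 12 at equal numbers of nuclei. DESeq2 kept 4 of 105 and gave no adjusted p for the 8 in Excitatory neuron 5. The cause of these changes was not tested. Snhg11 in microglia was the named call that reversed, at 0.75 without TBI GFP replicate 4, the left GFP library, over a range of -3.13 to 0.75 with 1 library left out. For gene expression, the doublet score limit was not run for microglia and fibroblasts, which have libraries with 0 nuclei under it. No paired analysis was possible because the 4 libraries carry replicate numbers of their own, so the groups share none, and hemisphere was the block instead.

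DESeq2 called 0 genes in astrocytes, choroid plexus, inhibitory neurons, microglia, mixed neurons and oligodendrocytes, with 82, 13, 59, 1, 86 and 21 at an unadjusted p under 0.05, and 4 in excitatory neurons. In clusters it called 0 in Astrocyte 1 and 3, Excitatory neuron 1 and 4, and Inhibitory neuron 1 and 3, with 35, 40, 120, 55, 16 and 6 at an unadjusted p under 0.05, 1 each in Excitatory neuron 2 and 3, and 36 in Excitatory neuron 5. RLE size factors gave 0 genes in excitatory neurons and 30 in mixed neurons. Robust empirical Bayes gave 29 in inhibitory and 66 in mixed neurons. With library totals there were 172 in excitatory, 6 in inhibitory and 58 in mixed neurons, 121 in Excitatory neuron 1 and 35 in Excitatory neuron 4. In the same setting the calls were 5 higher and 7 lower in oligodendrocytes, 25 and 26 in Astrocyte 1, 15 and 21 in Astrocyte 3, 14 and 25 in Excitatory neuron 2, 3 and 2 in Inhibitory neuron 3, and 4 and 4 in choroid plexus. Limma-voom gave 19 in excitatory, 4 in inhibitory, 8 in microglia, 179 in mixed neurons and 24 in oligodendrocytes. With no filter the counts were 402 in excitatory neurons, 158 in inhibitory neurons, 24 in microglia, 69 in mixed neurons, 120 in Excitatory neuron 1 and 24 in Excitatory neuron 4. With no hemisphere term they were 47 in astrocytes, 96 in excitatory neurons, 0 in inhibitory neurons, 0 in microglia and 51 in mixed neurons. At a doublet score of at most 0.05 there were 29 in astrocytes, 4 in choroid plexus, 564 in excitatory neurons, 464 in inhibitory neurons and 3 in OPC, and 2 clusters passed for their share of nuclei, Inhibitory neuron 2 and Microglia, the latter against 0 nuclei in both GFP libraries. At equal numbers of nuclei there were 0 in excitatory, inhibitory and mixed neurons, 6 in microglia and 1 in oligodendrocytes.

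With 1 library left out, calls ranged from 53 to 83 in astrocytes, 1 to 12 in choroid plexus, 34 to 544 in excitatory neurons, 0 to 3 in fibroblasts, 0 to 207 in inhibitory neurons, 0 to 15 in microglia, 31 to 82 in mixed neurons, 1 to 8 in OPC and 0 to 14 in oligodendrocytes. In clusters they ranged from 12 to 31 in Astrocyte 1, 12 to 46 in Astrocyte 3, 54 to 92 in Excitatory neuron 1, 8 to 21 in Excitatory neuron 2, 13 to 66 in Excitatory neuron 3, 8 to 28 in Excitatory neuron 4, 141 to 207 in Excitatory neuron 5, 3 to 45 in Inhibitory neuron 1 and 2 to 6 in Inhibitory neuron 3. For shares of nuclei 0 to 1 clusters passed, Inhibitory neuron 5 without the right VEGFC library, and 0 to 0 classes. In such a fit 1 vector has 1 library, which is assumed to vary like the others, and the hemisphere term is dropped too.

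Further log2 fold changes that reversed belong to genes that had not passed. With 1 library left out, those in astrocytes ranged from -0.88 to 0.094 for Flt1, -0.39 to 0.038 for Nrp2 and -0.14 to 0.40 for Vegfc, and Nrp1 in choroid plexus from -0.23 to 0.21. In excitatory neurons Flt1 ranged from -0.62 to 0.82 and Vegfc from -0.33 to 0.089. In inhibitory neurons Adora2a ranged from -2.98 to 1.40, Drd1 from -1.88 to 0.090, Rgs9 from -2.58 to 0.80 and Nrp2 from -0.12 to 0.10. In microglia Apoe ranged from -0.0026 to 0.22, Cst3 from -0.44 to 0.15, Nrp2 from -0.18 to 0.37, Rbfox1 from -2.20 to 0.14 and Siglech from -0.79 to 0.15. Mapt in mixed neurons ranged from -0.12 to 0.0054, Nrp2 in OPC from -0.0083 to 0.58, and Fyn in oligodendrocytes from -0.062 to 0.62. At a doublet score of at most 0.05, Vegfc in astrocytes was -0.20, Trpc6 in excitatory neurons -0.057, Nrp2 in inhibitory neurons 0.048 and Nrp2 in mixed neurons -0.063. Flt1 in excitatory neurons was 0.061 in DESeq2 and 0.10 at equal numbers of nuclei.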

Other observations

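Other lists had few or no calls and are given as counts and medians of the log2 fold change, beside a share of about 49% of all genes above 0 in astrocytes and excitatory neurons. Complement genes were below 0 in 6 of 6 tested in astrocytes (median -0.22), in 6 of 7 in excitatory neurons (median -0.47) and in 4 of 5 in oligodendrocytes (median -0.29), with 0 past the threshold in edgeR's test. Genes of oxidative phosphorylation coded in the nucleus were below 0 in 54 of 72 in excitatory neurons (median -0.09, with 0.01 on the right and -0.19 on the left) and in 57 of 69 in mixed neurons (median -0.31), with 0 past the threshold. In oligodendrocytes the sign was balanced, with 37 above and 32 below 0. Genes of cholesterol synthesis were below 0 in 15 of 21 in excitatory neurons (median -0.18), and lysosomal genes in 16 of 22 (median -0.12). Tau and its kinases were above 0 in 13 of 19 in astrocytes, 12 of 20 in excitatory neurons and 13 of 17 in oligodendrocytes, with medians of 0.17, 0.11 and 0.18 and 0 past the threshold. Genes of disease-associated oligodendrocytes were below 0 in 9 of 10 (median -0.13). Clock genes in astrocytes were below 0 in 12 of 18, and Dbp alone passed. In astrocytes Trp53, the p53 gene, also fell, at 59.9, 57.5, 39.8 and 31 CPM in the right GFP, left GFP, right VEGFC and left VEGFC libraries (-0.73 ± 0.19, adjusted p = 0.016), and 9 of 12 genes of its list were below 0.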
